A study of Mus musculus with 4 samples.

Results

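Cytosolic ribosomal protein genes encode the protein part of the ribosome that translates nuclear mRNA. They were followed here in mammary tumour cells of the mouse given GSK-126, an inhibitor of the histone methyltransferase EZH2. The members were found by gene symbol: genes named Rpl, Rplp or Rps with a number and at most 1 suffix letter, without pseudogene names ending in -ps and without the S6 kinase genes (Rps6k). This gave 66 of the 22180 genes named on the array, 42 of the large and 24 of the small subunit. The name pattern uses no measured value, and mean level picked 1 probe set per gene. The members were, however, chosen with earlier results of these data known. RefSeq lists 64 of the 66 as protein-coding and Rpl6l and Rps4l as pseudogenes. A further 19 protein-coding RefSeq symbols of this pattern had no probe set of their own and are not described as single genes.

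The cells were lines grown from mammary tumours of MMTV-NIC mice (female, FVB strain), in which activated ErbB2 and Cre recombinase come from 1 transcript under a promoter active in mammary epithelium. One group received 2 µM GSK-126 for 96 h (n = 2 arrays) and the other received the vehicle DMSO for 96 h (n = 2 arrays), and both carry the transgene. The submitters speak of cell lines but do not say whether replicates are separate lines or cultures of 1 line, so the p-values cover the spread of these arrays alone, and that spread may be technical. Over all probe sets, GSK-126 replicate 2 stood somewhat apart: it correlated at 0.981 with GSK-126 replicate 1 and at 0.983 and 0.981 with DMSO replicates 1 and 2. GSK-126 replicate 1 correlated at 0.987 and 0.986 with those DMSO arrays, and the DMSO arrays at 0.988 with each other. The aim given by the submitters was to record the transcriptional response to the inhibitor.

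A ribosome needs nearly all of its proteins in equal amounts. Their mRNAs are among the most abundant in growing cells, and many begin with a terminal oligopyrimidine (TOP) tract, a C followed by a run of pyrimidines, through which mTOR signalling controls their translation. Free large subunit proteins Rpl5 and Rpl11 can bind the ubiquitin ligase Mdm2 and so link ribosome assembly to p53. Array values report mRNA amount only and say nothing of translation.

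Sequences at the start of 8 members are printed first, because the start is a feature that the gene names did not use. Each runs from 60 bases before to 20 bases after the first transcribed base given by RefSeq (build GRCm38.p6). Capitals mark a TOP-like run at that base, or the letters CCGGAAG, a core bound by ETS factors, where they fall in the printed stretch. The first 4 belong to the members with an unadjusted p under 0.05, namely Rpl9 (chr5:65391412-65391491, minus strand), Rpl37 (chr15:5116553-5116632, plus strand), Rpl34 (chr3:130730379-130730458, minus strand) and Rps25 (chr9:44407654-44407733, plus strand).
Rpl9: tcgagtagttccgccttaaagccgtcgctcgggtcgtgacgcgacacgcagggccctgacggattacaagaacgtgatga
Rpl37: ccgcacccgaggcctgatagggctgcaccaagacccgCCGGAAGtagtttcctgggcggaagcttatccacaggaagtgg
Rpl34: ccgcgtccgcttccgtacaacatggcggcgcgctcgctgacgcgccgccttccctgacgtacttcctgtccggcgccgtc
Rps25: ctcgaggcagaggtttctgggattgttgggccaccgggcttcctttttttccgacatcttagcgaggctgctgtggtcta

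The next 4, picked after the values were seen, show starts with a TOP-like run and a paralog pair. They are Rps6 (chr4:86857348-86857427, minus strand), Rpl35 (chr2:39005112-39005191, minus strand), Rps27 (chr3:90213629-90213708, minus strand) and its paralog Rps27l (chr9:66946026-66946105, plus strand). None of the first 4 printed starts opens with such a run, which was also absent from 40 of the 51 members with RefSeq starts. The printed stretch of Rps25 does hold a pyrimidine run before the first transcribed base. That of Rpl34 holds a short run just after this base, and neither was counted. Rps6, Rpl35 and Rps27 open with a TOP-like run, but that contrast comes from how these genes were picked. Whether the run is related to the change was not tested.
Rps6: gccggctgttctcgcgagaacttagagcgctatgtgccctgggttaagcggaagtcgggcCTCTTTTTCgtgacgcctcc
Rpl35: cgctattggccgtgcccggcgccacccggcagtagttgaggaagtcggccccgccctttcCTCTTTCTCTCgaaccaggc
Rps27: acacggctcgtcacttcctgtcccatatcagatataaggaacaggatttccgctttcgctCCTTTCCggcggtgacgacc
Rps27l: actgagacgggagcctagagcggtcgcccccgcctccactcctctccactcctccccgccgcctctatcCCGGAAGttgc

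RefSeq starts were found for 51 of the 66 members, as windows of 250 bases before and 50 after the start, searched on both strands except for the TOP-like run. A C followed by 4 pyrimidines from the first transcribed base was present in 11 of the 51 members (21.6%), against 3.01% of all 27025 genes with such windows. CCGGAAG was present in 22 members (43.1%), against 9.93% of all genes, and AAGATGG, a core of the YY1 motif, in 7 members (13.7%), against 7.28%. RefSeq places some starts a few bases away from the main start, so a missing run says only that these letters are not at that base. The 11 members with the run had a median change of -0.031 and the 40 without it -0.051, and both classes held genes on either side of 0.

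On the arrays, ribosomal protein mRNAs were nearly level between GSK-126 and DMSO cells. None of the 66 genes passed the test (limma moderated test, two-sided, Benjamini-Hochberg over all genes, threshold 0.05), against 0.433% of all genes (0.261% higher and 0.171% lower), and the smallest adjusted p was 0.236, that of Rpl9. At an unadjusted p under 0.05 in limma, 1 member was higher (1.52%, against 4.64% of all genes) and 3 were lower (4.55%, against 5.93%). Changes are GSK-126 minus DMSO on the log2 scale throughout, with the standard error (SE) of the fit. In bulk RNA, fewer cells expressing a gene and less RNA per cell cannot be told apart, and RMA scales the arrays to each other, so a change in total RNA per cell was not measured.

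The changes of the members were small in size. Of the 66 genes, 45 changed by less than 0.1 (68.2%, against 42.2% of all genes) and 56 by less than 0.2 (84.8%, against 70.0%). The median absolute change was 0.066 for the members and 0.125 for all genes. These comparisons are not matched for level. Of the members, 37 lie above the 75th percentile of mean level, where all genes had a median SE of 0.095, against 0.15 over every level. The 40 ribosome assembly and RNA polymerase I genes had similar shares, 62.5% under 0.1 and 87.5% under 0.2. Small changes are thus not shown to be particular to the members. The 95% confidence interval of the change, unadjusted for the number of genes, lay within 2-fold either way for all 66 members and within 1.5-fold for 59 of them. The 7 others had intervals that reached further on 1 side, the widest being that of the stalk gene Rplp2 (-0.32 to 0.90). With 2 arrays a group, these intervals, not the absence of calls, bound how far the array value of a single gene can have moved. How closely each probe set follows the amount of its mRNA was not measured.

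**Figure D1:**
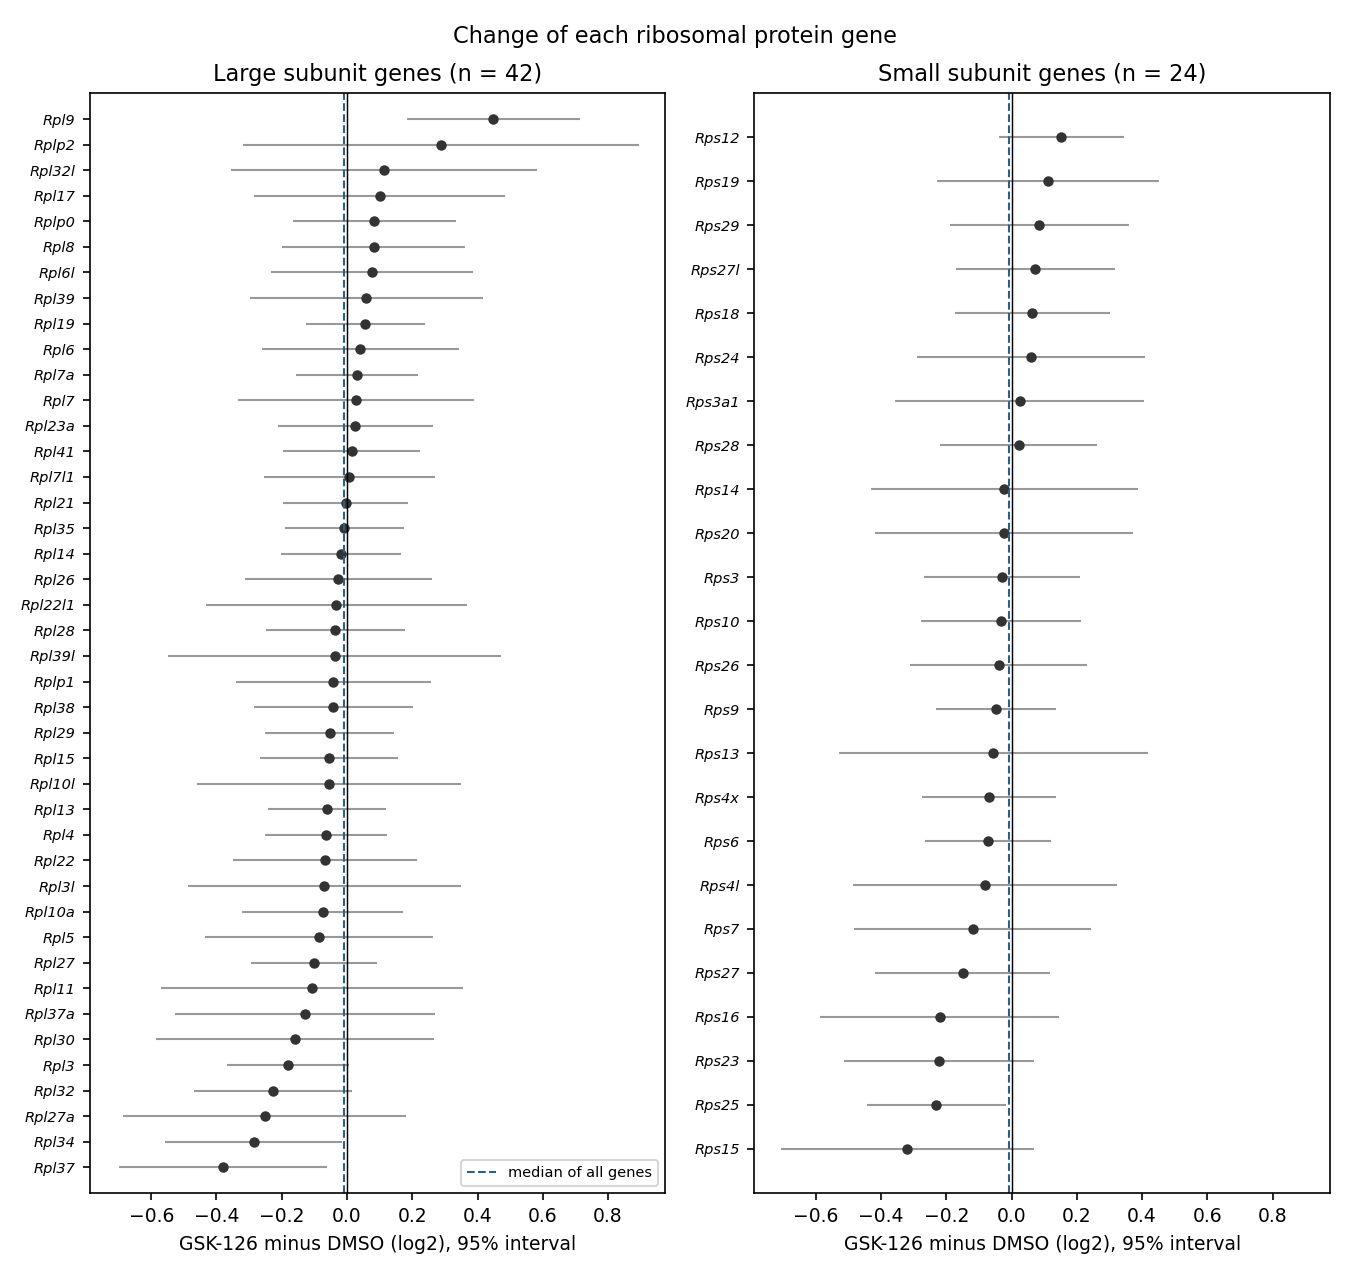
Change of each of the 66 ribosomal protein genes, GSK-126 minus DMSO on the log2 scale (points) with its 95% confidence interval (bars), for 42 large subunit genes (left) and 24 small subunit genes (right), ordered by change. The dashed line is the median of all genes. Most points lie within 0.2 of 0, and Rpl9 stands highest and Rpl37 lowest.

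The median change was -0.037 for the 42 large subunit genes (interquartile range -0.073 to 0.029) and -0.035 for the 24 small subunit genes (-0.090 to 0.033), a difference of -0.0017. The difference ran from -0.013 (without DMSO replicate 1) through 0.019 and 0.030 (without GSK-126 replicate 1 and 2) to 0.054 (without DMSO replicate 2), and was 0.026 with probe sets averaged, so its sign is not settled. Over all genes the median was -0.0077 (-0.13 to 0.12). The mean was lower with GSK-126 for 27 of 42 large and 16 of 24 small subunit genes, together 65.2% of the members against 52.0% of all genes. It was higher for the other 23 members, against 48.0% of all genes. When each array was centred on its own median, the member median was -0.091 and that of all genes -0.062. The member median minus that of all genes was -0.029 in both scalings. This difference was -0.0029 over the 13308 genes with the highest mean level and -0.068 without GSK-126 replicate 2, and it turned to 0.041 without GSK-126 replicate 1.

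Both subunits deviated the same way on each GSK-126 array, but differed in sign on DMSO replicate 1. Set against each gene's mean over the 4 arrays, the large subunit genes had a median deviation of -0.044 and 0.019 on GSK-126 replicates 1 and 2, and of -0.0034 and 0.018 on DMSO replicates 1 and 2. The small subunit genes had -0.056 and 0.018 on the GSK-126 arrays, and 0.029 and 0.0011 on the DMSO arrays. GSK-126 replicate 1 was the low array for both subunits, and GSK-126 replicate 2 lay within the range of the DMSO arrays or just above it. GSK-126 replicate 1 held the lowest of the 4 values for 26 of 66 members (39.4%, against 22.2% of all genes), while DMSO replicate 2 held it for 5 (7.58%, against 24.6%). GSK-126 replicate 2 held the highest value for 24 (36.4%, against 21.1%) and also the lowest for 22 (33.3%, against 31.2%). The median over all members accordingly turned to 0.0094 without GSK-126 replicate 1 and was -0.063 without GSK-126 replicate 2.

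**Figure D2:**
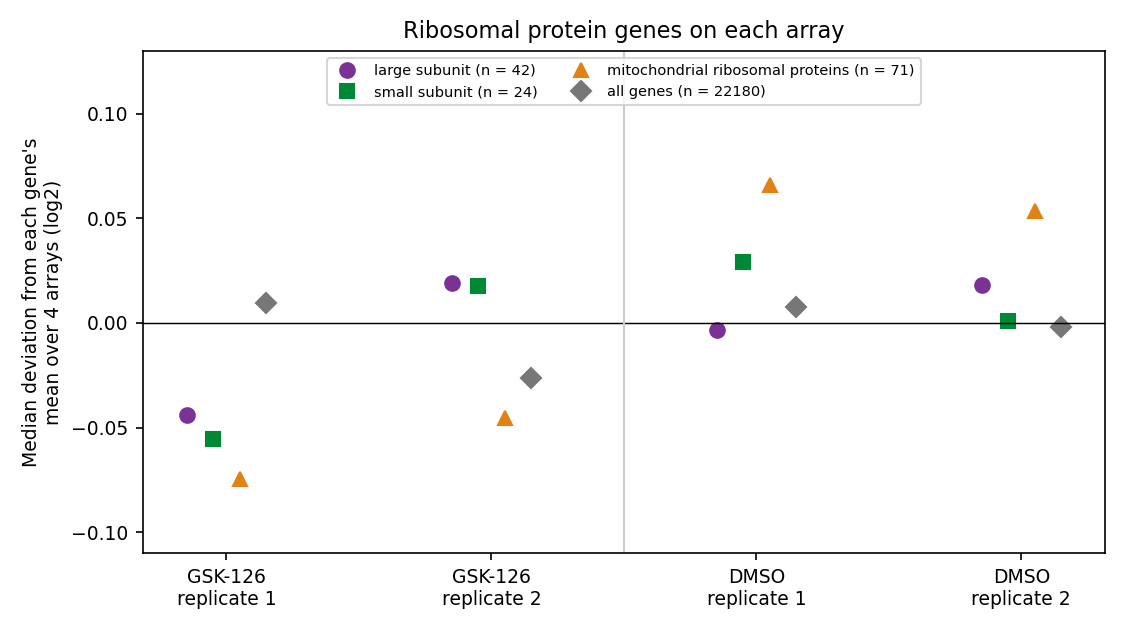
Median deviation of each gene set from the genes' own means over the 4 arrays (log2), for each array. GSK-126 replicate 1 is low for both subunits of the cytosolic ribosome and GSK-126 replicate 2 is not, while mitochondrial ribosomal protein genes are below 0 on both GSK-126 arrays and above 0 on both DMSO arrays.

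The 2 GSK-126 values lay on 1 side of both DMSO values for 17 members. They were lower in 13 (19.7%, against 21.8% of all genes) and higher in 4 (6.06%, against 18.2%). By subunit, 7 large and 6 small subunit genes were lower on both arrays, and 2 of each were higher.

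Among large subunit genes, Rpl9 was the one most above DMSO. It read 8.90 and 9.07 in GSK-126 cells, against 8.41 and 8.67 in DMSO cells, a 1.36-fold difference (0.45, SE 0.11, limma adjusted p = 0.236). Both GSK-126 values were above both DMSO values, with an SD of 0.12 in GSK-126 cells and 0.18 in DMSO cells (n = 2 each). A second Rpl9 probe set is dim, meaning here that its mean lies below 4.77, the 40th percentile of the mean level of all genes. It read 4.49 and 4.49 in GSK-126 cells, against 4.51 and 4.67 in DMSO cells, so the 2 probe sets differ in sign. Averaging them gave 0.18 with an adjusted p of 0.662 in limma.

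Rpl37, a zinc-binding protein of the large subunit, was the member most below DMSO. It read 5.80 and 5.66 in GSK-126 cells, against 5.99 and 6.23 in DMSO cells (-0.38, SE 0.14, limma adjusted p = 0.400). Rpl34 read 6.76 and 6.58 in GSK-126 cells, against 6.88 and 7.04 in DMSO cells (-0.29, SE 0.12, limma adjusted p = 0.448). In both genes the groups did not overlap.

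Rpl3, which reaches towards the peptidyl transferase centre, read 10.66 and 10.58 in GSK-126 cells, against 10.83 and 10.78 in DMSO cells (-0.18, SE 0.081, limma adjusted p = 0.491). Its 2 other probe sets were also lower with GSK-126, by 0.19 and 0.32 on the log2 scale. Rpl32 read 11.10 and 11.01 in GSK-126 cells, against 11.41 and 11.16 in DMSO cells (-0.23, SE 0.10, limma adjusted p = 0.4998). Rpl27a read 5.20 and 5.09 in GSK-126 cells, against 5.14 and 5.64 in DMSO cells, and its groups overlapped because 1 DMSO array was as low as the treated ones.

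Among small subunit genes, Rps25, which is needed for initiation at some viral internal entry sites in human and yeast cells, had the lowest p. It read 7.73 and 7.73 in GSK-126 cells, against 8.01 and 7.91 in DMSO cells (-0.23, SE 0.092, limma adjusted p = 0.438). The treated pair agreed closely and lay below both controls.

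Rps15 read 4.90 and 4.82 in GSK-126 cells, against 5.36 and 5.00 in DMSO cells (-0.32, SE 0.17, limma adjusted p = 0.553). Rps23, a protein of the decoding centre, read 6.64 and 6.44 in GSK-126 cells, against 6.66 and 6.86 in DMSO cells (-0.22, SE 0.13). Their groups did not overlap, but 1 value of each group came within 0.2 of the other group. Rps16 (-0.22, SE 0.16) and Rps27 (-0.15, SE 0.12) were likewise lower on both arrays, Rps16 by a margin of under 0.01 between its nearest values.

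Rps12 was the small subunit gene most above DMSO. It read 11.475 and 11.471 in GSK-126 cells, against 11.27 and 11.37 in DMSO cells (0.15, SE 0.082, limma adjusted p = 0.565). The groups did not overlap. Its 8 probe sets were all higher with GSK-126, by 0.081 to 0.15, but 6 of them held identical values on every array and are not separate measurements.

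**Figure D3:**
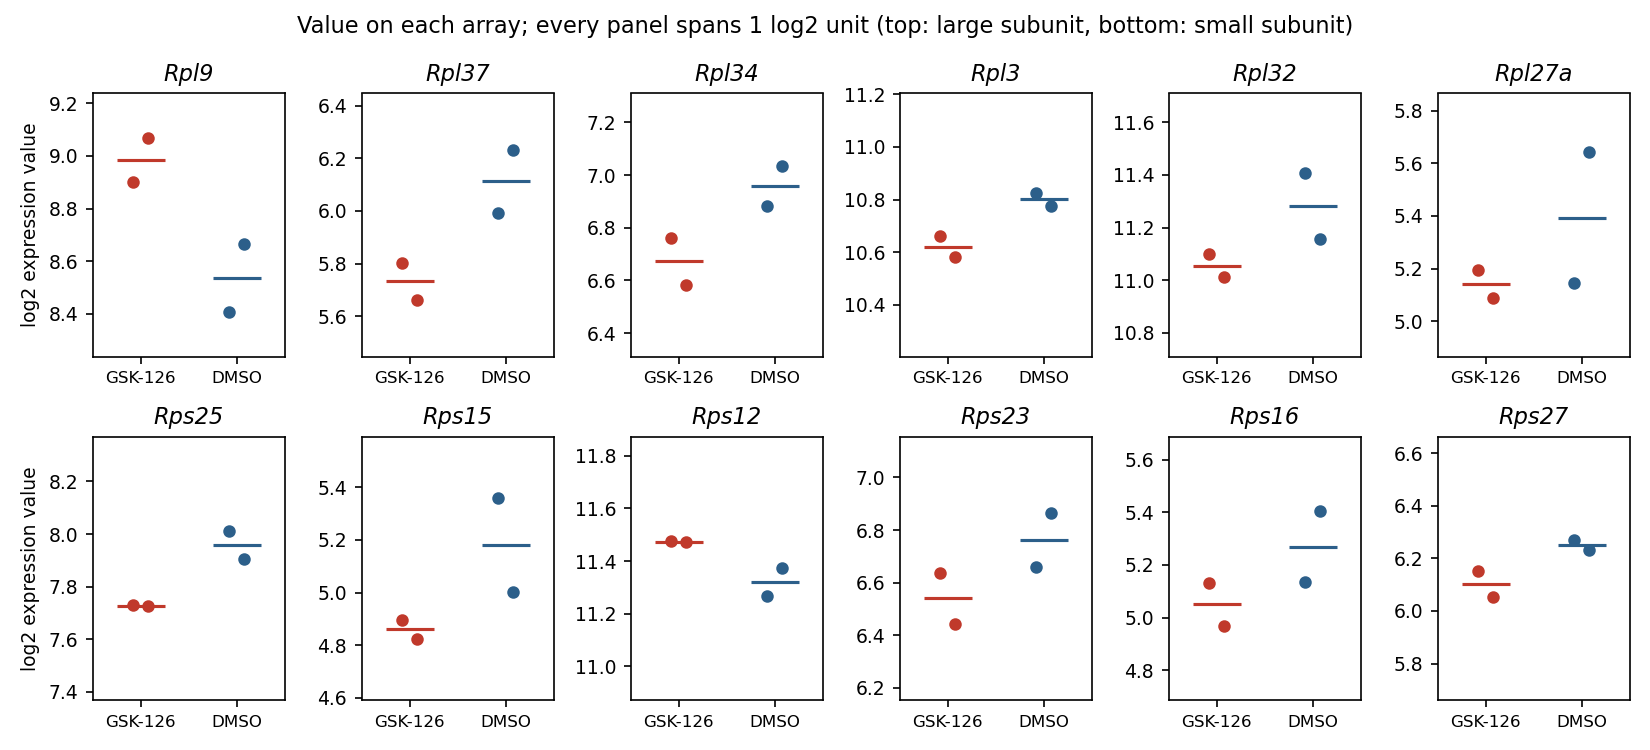
Log2 expression value on each array (points) with the group mean (bars) for the 6 large subunit genes (top) and the 6 small subunit genes (bottom) with the lowest p, GSK-126 left and DMSO right in every panel. Each panel spans 1 log2 unit. The groups do not overlap in any panel but that of Rpl27a. Picking genes by low p favours groups that do not overlap, so this is not a separate result.

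The stalk genes encode the acidic proteins that recruit elongation factors, and they gave no common direction. Rplp0, the base of the stalk, read 9.31 and 9.59 in GSK-126 cells, against 9.34 and 9.39 in DMSO cells. Rplp1 read 11.89 and 11.80 in GSK-126 cells, against 11.70 and 12.08 in DMSO cells. Both genes overlapped between the groups. Rplp2 read 4.81 and 4.32 in GSK-126 cells, against 3.95 and 4.61 in DMSO cells. This probe set was dim and its groups overlapped.

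Rpl5 and Rpl11, the proteins that join 5S rRNA and can bind Mdm2, were lower in mean with overlapping groups. Rpl5 read 6.40 and 6.23 in GSK-126 cells, against 6.59 and 6.22 in DMSO cells (-0.086, SE 0.15). Rpl11 was dim and read 4.30 and 4.82 in GSK-126 cells, against 4.68 and 4.65 in DMSO cells (-0.11, SE 0.20). Rps6, the small subunit protein phosphorylated by the S6 kinases, read 11.89 and 11.95 in GSK-126 cells, against 12.04 and 11.95 in DMSO cells (-0.072, SE 0.083), and its interval (-0.27 to 0.12) was narrow.

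Paralogs, some of which replace a core protein in certain tissues, were set beside the genes they resemble, and Rps4l is among them although RefSeq lists it as a pseudogene. Rps27l, which p53 induces, read 7.498 and 7.70 in GSK-126 cells, against 7.51 and 7.54 in DMSO cells (0.073, SE 0.10). Rps27 read 6.15 and 6.05 in GSK-126 cells, against 6.27 and 6.23 in DMSO cells (-0.15, SE 0.12). Only Rps27 had groups that did not overlap, and the difference between the changes of the pair was not tested.

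Rpl22l1 (-0.033, SE 0.17) and Rpl22 (-0.066, SE 0.12), both RNA-binding, overlapped between the groups. So did Rpl7l1 (0.0070, SE 0.11) and Rpl7 (0.028, SE 0.16), and Rpl39l (-0.038, SE 0.22) and Rpl39 (0.059, SE 0.15). Rpl3l, which replaces Rpl3 in striated muscle, changed by -0.070 (SE 0.18). Rpl10l, known from the testis, was dim at 3.63 and 3.39 in GSK-126 cells, against 3.54 and 3.59 in DMSO cells. Rps4l (-0.081, SE 0.17) and Rps4x (-0.069, SE 0.088) overlapped as well. None of the 7 paralogs had both GSK-126 values on 1 side of both DMSO values. Of all genes, 18.2% were higher and 21.8% lower in this way, so a count of 0 among 7 genes says little about paralogs.

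The probe sets set how well each member was read. The members have 106 probe sets with 1 symbol, and 24 members have several. For 10 of these 24 the probe sets differ in the sign of the change, namely Rpl4, Rpl7, Rpl9, Rpl13, Rpl21, Rplp1, Rps3a1, Rps24, Rps26 and Rps28. In Rpl4 the chosen probe set gave -0.065 and a less bright one 0.31. In all, 7 probe sets repeat another of the same gene exactly, in Rps12, Rpl23a and Rps19. Mean levels of the chosen probe sets ran from 2.70 (Rpl32l) to 12.70 (Rpl29), and 6 large subunit genes were dim (Rplp2, Rpl30, Rpl17, Rpl32l, Rpl11 and Rpl10l). Levels of different probe sets depend on the probes and are not compared as amounts of mRNA. Genome positions of the probe sets were not checked. A chosen probe set, that of Rpl9 included, need not lie at the RefSeq start given for its gene.

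The SE was smaller where the probe set was brighter. The 37 members above the 75th percentile of mean level had a median SE of 0.10 and a median change of -0.018, against -0.050 for all 5545 genes in that range. The 23 members between the 40th and 75th percentiles had a median SE of 0.15 and a median change of -0.070, against -0.020 for all 7763 genes there, and 19 of the 23 were lower in mean. Among bright members, chosen after their values were seen, Rpl21 changed by -0.0036 (SE 0.082), Rpl41 by 0.014 (SE 0.090) and Rpl29 by -0.053 (SE 0.085).

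**Figure D4:**
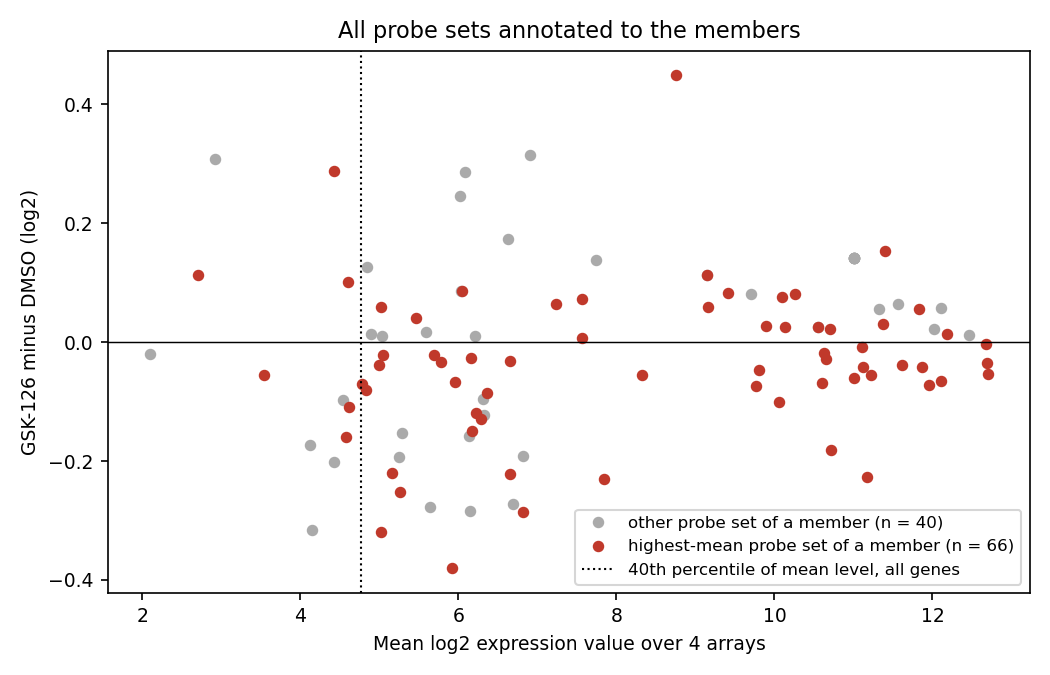
Change (GSK-126 minus DMSO, log2) against mean log2 expression value for the 106 probe sets annotated to the members, with the chosen highest-mean probe set of each of the 66 genes in red and the 40 others in grey. The spread around 0 narrows towards the bright end. Among the chosen probe sets above the 75th percentile of mean level, Rpl9, Rps25, Rpl32, Rpl3 and Rps12 lie furthest from 0.

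Other genes of ribosome supply were read from the same fit, in lists chosen with earlier results of these data known. Of the proteins of the cytosolic ribosome outside the name pattern, Rpsa, a small subunit protein, read 11.02 and 10.99 in GSK-126 cells, against 10.94 and 10.995 in DMSO cells (0.037, SE 0.079). Fau, whose product carries a small subunit protein, read 10.74 and 10.95 in GSK-126 cells, against 10.89 and 10.80 in DMSO cells (-0.0017, SE 0.096). Both overlapped between the groups. Rack1 and Rpl36al had no probe set of their own and are not analysed here.

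Elongation factors and other TOP genes had a median change of -0.0012 over 15 genes, with 0 past the threshold and 0 at an unadjusted p under 0.05 in limma. Eef2, which moves the ribosome along the mRNA, read 12.39 and 12.36 in GSK-126 cells, against 12.27 and 12.28 in DMSO cells (0.10, SE 0.079). Eef1d, a nucleotide exchange factor, changed by -0.13 (SE 0.10).

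Ribosome assembly and RNA polymerase I genes had a median change of -0.063 over 40 genes. In limma 0 passed the threshold, and 5 were lower and 0 higher at an unadjusted p under 0.05 (12.5% lower, against 5.93% of all genes). Of the 40 genes 0 were dim, and this comparison with all genes is not matched for level. Heatr3, which helps import of Rpl5 into the nucleus, read 7.76 and 7.59 in GSK-126 cells, against 8.03 and 7.94 in DMSO cells (-0.31, SE 0.10, limma adjusted p = 0.350). Ftsj3, an enzyme of ribosomal RNA maturation, read 8.90 and 8.82 in GSK-126 cells, against 9.10 and 9.10 in DMSO cells (-0.24, SE 0.082, limma adjusted p = 0.382). Hosts of small nucleolar RNAs, which guide ribosomal RNA modification, had a median of -0.14 over 5 genes, with Snhg5 at -0.31 (SE 0.11) and Snhg3 at -0.22 (SE 0.12).

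Mitochondrial ribosomal protein genes serve translation inside mitochondria. Their median change was -0.12 over 71 genes (interquartile range -0.20 to -0.042), against -0.037 for the cytosolic members. In limma 0 passed the threshold, and 11 were lower and 0 higher at an unadjusted p under 0.05 (15.5% lower, against 5.93% of all genes). Both GSK-126 values were below both DMSO values for 35 of the 71 (49.3%, against 21.8% of all genes and 19.7% of the cytosolic members). The shares of this list and of all genes are not matched for level. Of the 71 genes 1 was dim, against 8872 of all 22180 genes. Among all genes the median change was -0.050 above the 75th percentile of mean level and 0.040 below the 40th. Mrpl20 read 5.72 and 5.92 in GSK-126 cells, against 6.23 and 6.44 in DMSO cells (-0.52, SE 0.14, limma adjusted p = 0.256). Mrpl49 read 8.20 and 8.37 in GSK-126 cells, against 8.57 and 8.61 in DMSO cells (-0.30, SE 0.094, limma adjusted p = 0.323). The difference between the mitochondrial and cytosolic lists was not tested.

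The genes read as p53 outputs, which ribosomal stress can raise, were higher in mean in all 6 measured, with a median of 0.28. In limma 0 passed the threshold over all genes, and 6 were higher at an unadjusted p under 0.05 (against 4.64% of all genes). The list was chosen with earlier results of these data known, so this count is not independent support for a p53 response. Rps27l, which p53 also induces, is outside the list, and its groups overlapped (0.073, SE 0.10). Mdm2, the ubiquitin ligase of p53, read 9.90 and 9.98 in GSK-126 cells, against 9.67 and 9.58 in DMSO cells (0.32, SE 0.083, limma adjusted p = 0.258). Trp53inp1 read 10.04 and 10.11 in GSK-126 cells, against 9.63 and 9.84 in DMSO cells (0.34, SE 0.096, limma adjusted p = 0.287). All 6 genes had both GSK-126 values above both DMSO values, against 18.2% of all genes. Whether this relates to the ribosomal protein genes was not tested.

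**Figure D5:**
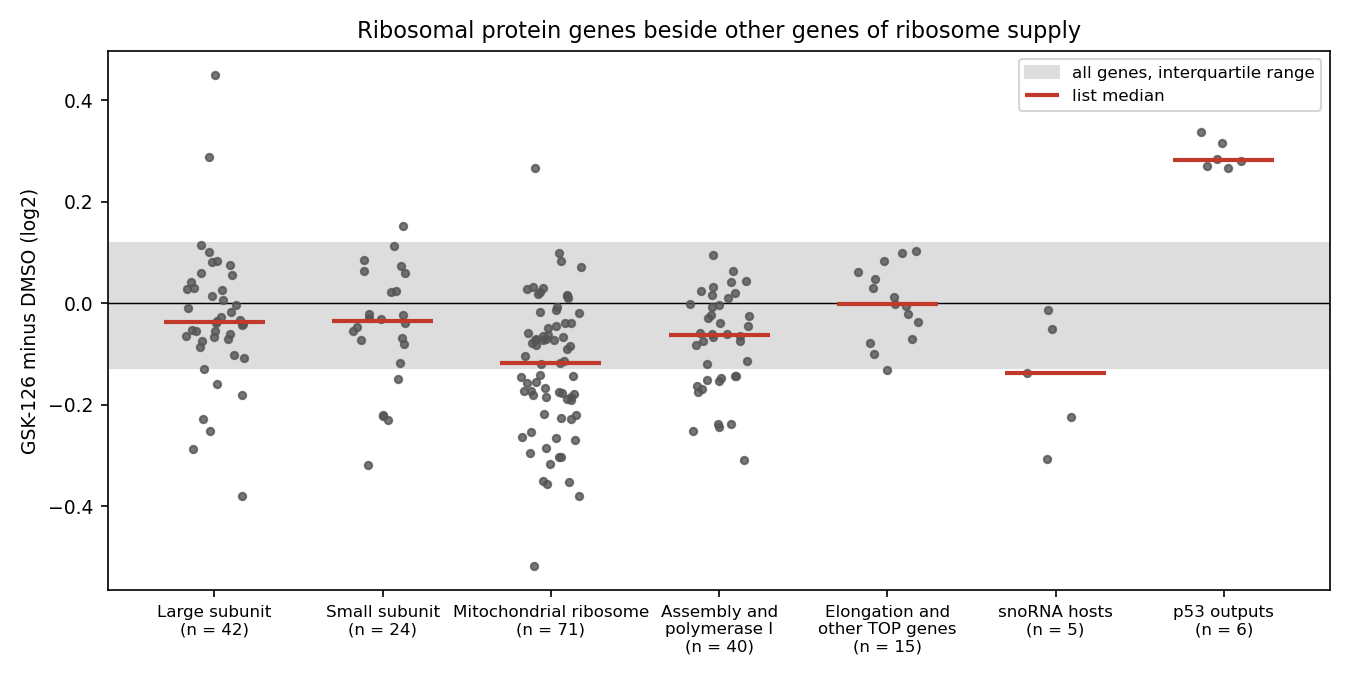
Change of each gene (points, GSK-126 minus DMSO, log2) by list, with the list median (red bar) and the interquartile range of all genes (grey band, -0.13 to 0.12). The medians of both subunits of the cytosolic ribosome are close to 0, that of mitochondrial ribosomal proteins is -0.12, and that of the p53 outputs is 0.28.

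Defining epithelial markers were present. Epcam, Cdh1, Krt8, Krt18, Cldn3, Cldn4 and Cldn7 were not dim, and Krt19 was. Dim markers were 4 of 5 measured for immune cells, 3 of 5 for fibroblasts, 3 of 4 for endothelium and 2 of 3 for adipocytes. Of the basal markers, 1 of 3 measured was dim. The lists held 8 epithelial, 3 basal, 5 immune, 5 fibroblast, 4 endothelial and 3 adipocyte markers that were measured. In limma 0 genes of these marker lists passed the threshold, and 5 had an unadjusted p under 0.05, against 10.6% of all genes. Of these, Cldn4 (0.39), Fabp4 of adipocytes (0.62) and Pdgfra of fibroblasts (0.45) were higher with GSK-126, the last 2 from dim probe sets. Cldn7 (-0.22) and Krt14 of basal cells (-0.51) were lower. The part of these differences in the ribosomal protein values was not tested.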

How the data were processed

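Per the labels, the authors deposited log2 expression values from Expression Console, summarised by RMA (robust multi-array averaging) with a core-exon analysis, and the submitters' processing notes add Affymetrix Power Tools. A genome build was not given in the sources used here. Of 41345 probe sets, 23521 carry 1 symbol in the platform annotation. Each of 22180 genes was read from its probe set of highest mean level. All 66 members matched RefSeq by Entrez identifier, with 0 symbols updated. Differences were fitted with limma 3.58.1 in R 4.3.3 (intensity trend in the prior, 2 residual and 5.57 prior degrees of freedom, Benjamini-Hochberg over all genes, threshold 0.05), and the fit was tested on simulated data. Precision is limited by having 4 arrays. Scan dates were not analysed here.

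Named genes were those past the threshold, the 6 members per subunit with the lowest p, paralogs with their counterparts, the stalk, Rpl5, Rpl11, Rps6, members whose probe sets differ in sign, ribosomal proteins outside the pattern, and the 2 lowest p of each other list. Members and lists were chosen with earlier results of these data known. Alternatives varied the prior, dim genes, probe sets, scaling, replicate block, arrays and membership. Promoter sequences are from RefSeq (GRCm38.p6).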

Additional observations from a re-analysis of the deposited data

How the results depend on the processing

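In limma, 0 ribosomal protein genes passed the threshold under every alternative run, and 0 genes of the other lists did. Over all genes 96 passed, against 0 without the intensity trend, 149 without dim genes, 10 with the replicate block and 0 to 4 when 1 array was left out (a lone array is then assumed to vary like the other group). Labels do not say that replicate numbers pair the arrays, and the deviations of same-numbered arrays correlated at -0.027. The block changed no call of a member, with 3 of 66 at an unadjusted p under 0.05 in limma, against 9.58% of all genes. In the main fit 4 of 66 members had an unadjusted p under 0.05 in limma, against 10.6% of all genes. Without the trend these became 2 (1 higher, 1 lower), against 8.85% of all genes. After quantile normalization they became 2 (1 higher, 1 lower), against 9.66%. Centring arrays gave medians of -0.091 (all members), -0.091 (large) and -0.089 (small). With an array left out, the medians ran from -0.063 to 0.0094 (all), -0.052 to 0.012 (large) and -0.082 to -0.0067 (small), and the large minus small difference from -0.013 to 0.054. Averaging probe sets put that difference at 0.026. The causes were not tested. Adding Rpsa and Fau (median -0.034), leaving out paralogs (-0.036), or, chosen after seeing the data, leaving out the 2 pseudogenes (-0.037) or keeping only members above the 75th percentile (-0.018) moved the median by less than the spread between replicates (SD 0.033). Of the 36 members and 12 other genes named by rule, 0 passed the threshold in any of 573 values recomputed for single genes, and 42 of these had the opposite sign. Dim probe sets limit what can be read of 6 members. Others lay little above the cut of 4.77, for example Rps15, Rps16 and Rpl27a, with mean levels of 5.02, 5.16 and 5.27.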

Other observations

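A further 57 probe sets carry a ribosomal protein symbol beside other symbols, and no single gene was read from them. Their median change was -0.012, from -0.46 to 0.43, and 32 of the 57 were lower in mean with GSK-126. Among the 19 protein-coding symbols without a probe set of their own, 12 occur only in such shared probe sets, for example Rpl10, Rpl23 and Rps2. With these probe sets added, a setting chosen after seeing the data, the median over the ribosomal protein genes was -0.029.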
